A study of Homo sapiens with 136 samples.

Results

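The genes described here encode the subunits of the proteasome. They were chosen by symbol: every row of the count table named PSMA, PSMB, PSMC, PSMD or PSME followed by a number and nothing more, without the 3 immunoproteasome subunits PSMB8, PSMB9 and PSMB10. This gave 40 of 25435 gene symbols. Of these, 16 encode the 20S core, 20 the 19S cap and its assembly chaperones, and 4 the proteasome activators. Another 5 symbols share the prefix but carry an ending (PSMC3IP, PSME3IP1, PSMA3-AS1, PSMD6-AS2 and PSMB8-AS1) and were left out. In each line 38 of the 40 genes had enough counts to be tested. The other two, PSMA8 and PSMB11, are known as testis and thymus subunits and had 1 and 3 counts over all libraries of both lines.

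Expression was measured by PLATE-Seq, which makes barcoded RNA libraries from the 3′ ends of transcripts in cells lysed in multi-well plates. The cells were AsPC-1 and PANC-1, established lines from human pancreatic ductal adenocarcinoma. After 24 h of growth, cells were treated for 24 h with an autophagy inhibitor, alone or together with 1 of 14 inhibitors of the RAF, MEK or ERK kinases. Hydroxychloroquine (H) raises lysosomal pH, and the other autophagy inhibitor (V, written VSP34I in the labels) acts on Vps34, a lipid kinase needed to begin autophagosome formation. Each line had 6 libraries of H alone, 6 of V alone, and 2 of every combination, which makes 68 libraries in 30 treatment groups. RAF inhibitors were RAF709, dabrafenib, GDC-0879, PLX8394 and sorafenib (20 libraries per line). MEK inhibitors were binimetinib, cobimetinib, refametinib (also spelled Refamatinib in the labels), selumetinib and trametinib (20 libraries). ERK inhibitors were AZD0364, ravoxertinib, SCH772984 and ulixertinib (16 libraries). Drugs were dosed at the concentration that left 80% of cells viable after 48 h. The sources used here do not give the doses, so single drugs were not compared with each other. MEK and ERK inhibitors were compared only as classes, at doses that are not known. Every library, the 12 alone libraries of a line included, had an autophagy inhibitor, and neither untreated cells nor kinase inhibitors by themselves were measured. The labels do not say whether replicates were separate cultures, so p-values measure only the spread between these libraries, which may be technical.

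The 20S core is a barrel of alpha rings, which gate the entry, around beta rings, which hold the proteolytic sites. The 19S cap binds ubiquitin-tagged proteins, removes the ubiquitin and feeds the unfolded chain into the core: its base holds a ring of ATPases (PSMC genes) and large scaffold and receptor subunits, and its lid surrounds the deubiquitinase PSMD14. Activators such as PSME1 with PSME2 (PA28 alpha and beta) open the core without ubiquitin and are known as interferon-induced partners of the immunoproteasome. Together with autophagy the proteasome is the main route by which cells break down their own proteins.

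Library totals ran from 1419228 to 5871860 counts (medians 3351744 for AsPC-1, 3636446 for PANC-1). Levels are in CPM, a gene's counts scaled to a common library total and so a share of the library. Therefore fewer cells with a transcript and less of it per cell cannot be told apart. Because 3′ ends were counted, levels of different genes are not compared. For the 38 tested subunit genes the median coefficient of variation between alone libraries was 16.2% (AsPC-1) and 15.3% (PANC-1), against 6.21% and 5.21% from counting alone. All 5 epithelial and ductal markers (EPCAM, KRT7, KRT8, KRT18, KRT19) were at 1 CPM or more in both lines. Of the markers of other cell types, COL1A1 with LUM (AsPC-1) or COL3A1 (PANC-1) and CD68 reached that level, CD3E and KDR had no count in AsPC-1, and endothelial markers summed to at most 2.08 and 2.97 CPM. As a check of the labels, 9 of 9 tested ERK output genes fell under MEK inhibitors and 8 of 9 under ERK inhibitors in AsPC-1, and 8 of 8 under both in PANC-1. SPRY4, a feedback inhibitor of the pathway, had 17.1 CPM under MEK inhibitors against 121 CPM in the alone libraries of AsPC-1.

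Promoters are shown for 3 lid genes that were lower in AsPC-1 under MEK and ERK inhibitors (PSMD14, PSMD12, PSMD8) and for the activator genes that were higher (PSME1, PSME2). The 3 lid genes were picked with the motifs known: of the 17 genes that were lower under MEK inhibitors and have a promoter in the table, they are the ones that carry CCGGAAGT, the ETS motif below. Each is the 180 bases before and 10 after the start site in RefSeq (GRCh38.p14), 5′ to 3′ on the gene's strand. PSMD14 lies at chr2:161308245-161308434 (+), PSMD12 at chr17:67366568-67366757 (−), PSMD8 at chr19:38374391-38374580 (+), PSME1 at chr14:24136014-24136203 (+) and PSME2 at chr14:24146601-24146790 (−). Capitals mark matches, on either strand, to the 3 motifs searched: TGACNNNGC (the core of the antioxidant response element, which NFE2L1 and NFE2L2 bind), CCAAT (bound by NF-Y) and CCGGAAGT (bound by ETS factors).
PSMD14: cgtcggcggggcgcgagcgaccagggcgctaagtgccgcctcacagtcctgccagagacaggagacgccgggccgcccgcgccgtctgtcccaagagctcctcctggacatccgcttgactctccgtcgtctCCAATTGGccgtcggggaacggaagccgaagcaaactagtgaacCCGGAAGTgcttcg
PSMD12: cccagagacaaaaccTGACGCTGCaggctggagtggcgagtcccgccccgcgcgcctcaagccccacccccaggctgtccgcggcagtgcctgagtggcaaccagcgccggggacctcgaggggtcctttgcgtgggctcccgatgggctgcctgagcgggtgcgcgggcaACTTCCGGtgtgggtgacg
PSMD8: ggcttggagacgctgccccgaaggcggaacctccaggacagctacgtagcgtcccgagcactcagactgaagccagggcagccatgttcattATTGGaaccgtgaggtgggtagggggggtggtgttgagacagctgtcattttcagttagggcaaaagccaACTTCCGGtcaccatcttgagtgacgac
PSME1: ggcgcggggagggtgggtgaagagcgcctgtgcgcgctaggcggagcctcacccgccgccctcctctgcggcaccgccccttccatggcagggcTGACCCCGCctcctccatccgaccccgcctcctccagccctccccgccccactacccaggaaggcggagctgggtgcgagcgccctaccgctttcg
PSME2: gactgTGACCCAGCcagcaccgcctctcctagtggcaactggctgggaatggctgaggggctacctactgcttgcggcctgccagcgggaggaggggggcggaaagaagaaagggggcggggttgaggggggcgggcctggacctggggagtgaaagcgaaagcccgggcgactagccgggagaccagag

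In PSMD14 a CCAAT motif on each strand begins 48 and 45 bases before the start and overlaps the other. CCGGAAGT begins 4 bases before the start and runs across it. PSMD12 and PSMD8 carry CCGGAAGT on the opposite strand, 9 and 18 bases before the start. PSMD12 also carries TGACNNNGC 165 bases before the start, and PSMD8 CCAAT on the opposite strand 88 bases before it. PSME1 and PSME2 carry TGACNNNGC 86 and 175 bases before it, and neither CCAAT nor CCGGAAGT in these windows. RefSeq's table held 41 promoters (250 bases before to 50 after the start) for 35 of the 40 genes. TGACNNNGC was in 29.3% of them against 13.3% of all 35116 promoters in the table, CCAAT in 43.9% against 34.6%, and CCGGAAGT in 22.0% against 4.14%. Among the genes with a promoter that were lower under MEK inhibitors in AsPC-1 (17), 7, 10 and 3 carried these motifs in that order, and among the 16 other tested genes 5, 7 and 5 did. A match is a string of letters, not a site shown to be bound.

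In the alone libraries the summed 20S core had similar levels in both lines, 2187 ± 173 CPM in AsPC-1 and 2289 ± 147 in PANC-1. The summed 19S cap without PSMC4 did not overlap, with 1312 to 1825 CPM in AsPC-1 and 2044 to 2872 in PANC-1. Of the genes in this sum, only PSMC5, PSMD8 and PSMD11 did not overlap when taken one by one. The largest difference was that of PSMC4, an ATPase of the 19S base. PSMC4 had 166 ± 28 CPM in AsPC-1 and 3786 ± 465.9 CPM in PANC-1 (SD, n = 12 each), a ratio of 22.8. Of the 38 tested genes, 6 were higher in every PANC-1 library than in any AsPC-1 library (PSMB5, PSMC4, PSMC5, PSMD8, PSMD11 and PSME4). That is 15.8% of them, against 17.1% of 10173 genes with at least 5 CPM in a line. The lid subunits PSMD8 (92.3 CPM in AsPC-1, 272 in PANC-1) and PSMD11 (91.4 and 315 CPM) were among them. Only PSME1 was lower in every PANC-1 library (17.2 against 53.0 CPM), 2.63% of the genes against 9.71% of all. Without PSMC4 the median ratio of PANC-1 to AsPC-1 was 1.21 for subunit genes and 1.24 for all genes. Genes of mitochondrial DNA, part of the same library totals, summed to 310054 ± 12411 CPM in AsPC-1 and 226545 ± 13929 in PANC-1. Their part in the line ratios was not tested. Each line has title codes A and B of its own, read here as its plates, so line and plate cannot be told apart and no test was made.

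PSMC4 lies at chr19:39971005-39981441 (+) in GENCODE v29 on GRCh38, in 19q13, a region with AKT2 that is known to be amplified in PANC-1. Its neighbours were looked at after its value was seen. The 34 kept were protein-coding genes within 1000 kb on either side, with at least 5 CPM in either line and a count in the alone libraries of AsPC-1. Of these, 25 were higher in every PANC-1 library and 23 had a ratio of at least 5. That ratio was reached by 6.59% of all genes with at least 5 CPM in a line. Of these 23, 12 reached 5 CPM in PANC-1 only, so they entered through the line in which they are high. Among the 21 neighbours with at least 5 CPM in AsPC-1, 12 were higher in every PANC-1 library and 11 had a ratio of at least 5, against 1.29% of all genes at that level in AsPC-1. These 11 include FBL (19.3-fold, 104 and 2019.8 CPM) and RPS16 (14.0-fold, 645 and 9039 CPM), genes of nucleolar RNA methylation and of the small ribosomal subunit. AKT2, 249 kb after PSMC4, had 12.2 and 416 CPM. Farther along on that side the ratio dropped: C19orf47 was 2.58-fold higher, PLD3 2.25-fold, and from there on ratios ran from 0.53 (BLVRB) to 2.65 (RAB4B, 797 kb away), with SNRPA at 1.09. On the other side high ratios went on to FBXO17, 995 kb before PSMC4, with ZFP36 lower than its neighbours at 3.29-fold. Copy number was not measured here.

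**Figure D1:**
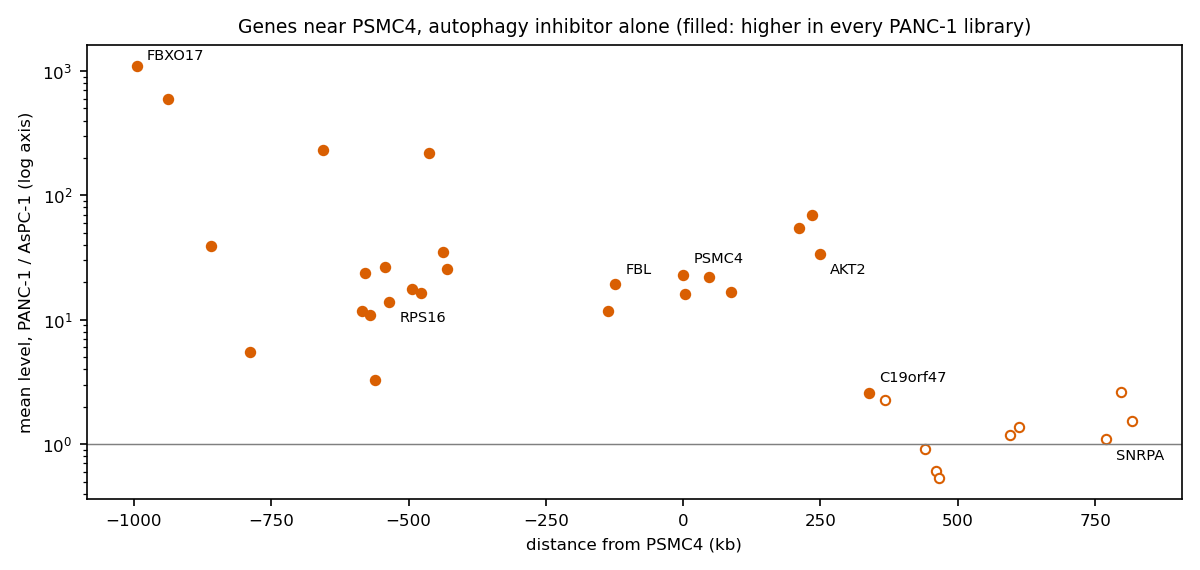
Ratio of mean CPM in PANC-1 to AsPC-1 (log axis) for PSMC4 and measured protein-coding genes within 1000 kb, by distance from PSMC4 in kb, over 12 alone libraries per line. Filled points were higher in every PANC-1 library. Ratios are 3.29 or more from FBXO17 to AKT2, and run from 0.53 (BLVRB) to 2.65 (RAB4B) farther along.

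Without a kinase inhibitor, the autophagy inhibitors differed in AsPC-1: 5 subunit genes were higher with V than with H, among them 3 of the 7 alpha ring genes, and 1 activator gene was lower. PSMA1 rose by 0.53 ± 0.11 (log2 difference ± SE), PSMA3 by 0.55 ± 0.12, PSMB1 by 0.64 ± 0.15, PSMA5 by 0.41 ± 0.10 and the lid deubiquitinase PSMD14 by 0.34 ± 0.10. PSME3 (PA28 gamma, a nuclear activator) was lower by a log2 difference of −0.52 ± 0.10. In all, 3.21% of 12761 genes were higher and 2.72% lower. The median difference was 0.18 over the 38 genes, 0.29 over the 20S core and 0.16 over the 19S cap, against 0.01 over all genes. All 7 tested alpha ring genes lay above 0.

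Library values overlapped between V and H for some of these genes and not for others. PSMA1 ran over 145, 164 and 169 CPM with H (lowest, median, highest) and over 209.8, 220.1 and 229.7 with V. PSMA3 ran over 105, 120.4 and 131 with H and over 157, 162 and 187 with V. PSMD14 ran over 161, 194 and 199 with H and over 205, 224 and 249 with V. For these 3 genes every V library lay above every H library. They were named because they passed this comparison, so this is no separate test. The share of all genes that separated in this way is not given here. PSMB1 ran over 32.8, 53.8 and 74.3 with H and over 64.7, 79.0 and 103 with V, so the groups overlapped, with 4 of 6 V libraries above all H libraries. PSMA5 overlapped too, with 187, 202 and 297 for H and 221, 285 and 322 for V. PSME3 had 181, 230.1 and 269 with H and 125, 139.9 and 183 with V, and 5 of 6 V libraries lay below all H libraries. Adjusted p-values (edgeR quasi-likelihood, Benjamini-Hochberg) ran from 0.00053 for PSME3 to 0.017 for PSMD14. Within plate A or plate B alone, with 3 libraries per group, none of the 38 genes passed in either direction, and PSMD14 had differences of 0.30 and 0.37. PSME3 overlaps BECN1 on the other strand, and the sources used here do not say whether counts used strand.

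MEK inhibitors lowered most tested genes of the 19S cap in AsPC-1 and raised both genes of the PA28 activator: 21 of 38 fell and 2 rose, against 16.1% of all genes lower and 12.9% higher. The 19S cap had 13 of 20 genes lower: 4 of 6 ATPases, 3 of 3 other subunits of the base (PSMD1, PSMD2, PSMD4) and 6 of 8 lid genes. Of its 3 assembly chaperones 0 passed, by edgeR, by DESeq2 or at an unadjusted p under 0.05. The 20S core had 7 of 14 lower, 4 in the alpha ring and 3 in the beta ring. PSME3 also fell, by 0.20 ± 0.07. The median log2 difference was −0.32 for the 19S cap and −0.23 for the 20S core, against −0.05 for all genes, and 33 of the 38 genes lay below 0. The log2 changes of all tested genes are plotted by comparison.

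**Figure D2:**
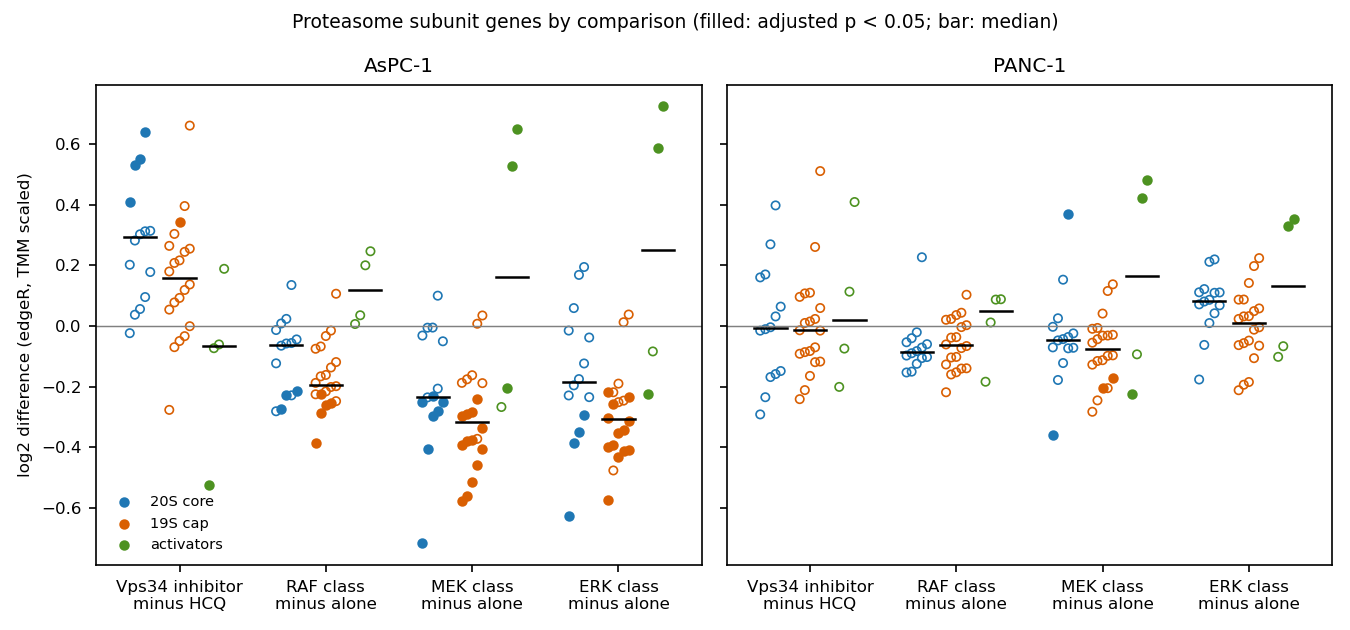
Log2 difference (edgeR, TMM scaled) of each of the 38 tested subunit genes in 4 comparisons and both lines, coloured by 20S core, 19S cap and activators, with medians as bars and called genes filled. In AsPC-1 most 19S genes lie below 0 under MEK and ERK inhibitors while PSME1 and PSME2 lie near the top, and in PANC-1 most genes lie near 0.

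PSMD14, the deubiquitinase of the lid, had 161, 202 and 249 CPM in the 12 alone libraries (lowest, median, highest) and 102, 138 and 179 under MEK inhibitors. It fell by 0.56 ± 0.06 (adjusted p = 1.3e-11, edgeR quasi-likelihood), and 17 of 20 libraries lay below every alone library. PSMB7, the trypsin-like catalytic subunit, had 49.3, 63.4 and 82.7 CPM alone and 24.1, 36.0 and 52.9 under MEK inhibitors. Its difference was the largest of the 38, −0.72 ± 0.10 (edgeR adjusted p = 2.0e-08), with 18 of 20 libraries below all alone libraries. PSMC4, an ATPase, had 113, 168 and 208 CPM alone and 88.9, 114 and 141 under MEK inhibitors, and fell by 0.51 ± 0.08 with overlapping groups. The alpha ring gene PSMA7 fell by 0.40 ± 0.07, from 212, 250.1 and 303 CPM to 125, 184 and 269.9, with 16 of 20 libraries below all alone libraries. The lid scaffold gene PSMD12 fell by 0.38 ± 0.08, from a mean of 69.4 to 52.0 CPM, and the ubiquitin and shuttle receptor PSMD2 by 0.46 ± 0.10, from 96.7 to 69.1 CPM. The remaining 15 genes that fell had differences from −0.58 (PSMD3, at 5.28 CPM) to −0.20 (PSME3), and PSMA4 passed only just (adjusted p = 0.0497).

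The other two catalytic genes did not pass. PSMB5, the chymotrypsin-like subunit, had 28.5, 46.0 and 55.0 CPM alone and 22.2, 37.9 and 54.2 under MEK inhibitors (log2 difference −0.21 ± 0.11, edgeR adjusted p = 0.15). PSMB6, the caspase-like subunit, had 38.4, 62.3 and 76.0 CPM alone and 33.8, 55.1 and 83.6 under MEK inhibitors (−0.01 ± 0.10). For both genes the groups overlapped.

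PSME1 had 42.4, 53.4 and 61.2 CPM alone and 57.9, 78.1 and 134 under MEK inhibitors, and rose by 0.65 ± 0.10 (edgeR adjusted p = 3.3e-07). PSME2 had 33.8, 51.0 and 64.1 CPM alone and 56.4, 67.1 and 88.8 under MEK inhibitors, and rose by 0.53 ± 0.09 (edgeR adjusted p = 1.1e-06). Most treated libraries lay above all alone libraries, 18 of 20 for PSME1 and 15 of 20 for PSME2. Their summed level did not overlap between the groups, with 90.2 to 123 CPM alone and 129 to 190.2 CPM under MEK inhibitors. PSME1 overlaps EMC9, and PSME2 overlaps RNF31, on the opposite strand.

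The 6 leading genes had the same sign on each plate. They were picked from the fit of both plates together, so this is no separate test. Within plate A and plate B the difference was −0.51 and −0.57 for PSMD14, −0.73 and −0.65 for PSMB7, −0.53 and −0.46 for PSMC4, −0.38 and −0.40 for PSMA7, 0.66 and 0.67 for PSME1, and 0.67 and 0.42 for PSME2. With fewer libraries, 11 genes were lower within plate A and 9 within plate B. For fits within a single plate, the shares of all genes lower or higher are not given in this report. The full count of 21 became 17 to 20 without any 1 alone library. It became 14 without the combinations of plate A or of plate B. Among the genes that fell, PSMC3 had 0.074 within plate A and PSMC6 had 0.021 within plate B, so their falls were not seen on both plates. The summed level of the genes of mitochondrial DNA, itself a share of each library, moved with the groups: it was 310054 ± 12411 CPM alone (SD, n = 12), 343723 ± 25861 under MEK inhibitors (n = 20) and 338335 ± 31875 under ERK inhibitors (n = 16). With these genes left out before scaling, 20 genes were lower under MEK inhibitors and 17 under ERK inhibitors. Cell type markers moved with the groups too. In AsPC-1 the 5 epithelial and ductal markers summed to 2916 to 4017 CPM alone, 4339 to 7686 under MEK inhibitors and 4786 to 6498 under ERK inhibitors, with 4 of 5 higher under each class (all but KRT7). The 6 fibroblast markers summed to 43.3 to 85.3 CPM alone, 73.7 to 246 under MEK inhibitors and 88.0 to 281 under ERK inhibitors. Most of this was LUM (means 62.2, 151 and 170.1 CPM), which rose under both classes, while COL1A2, COL3A1 and PDGFRB had means under 1 CPM in all 3 groups. The part of these markers in the changes of subunit genes was not tested.

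**Figure D3:**
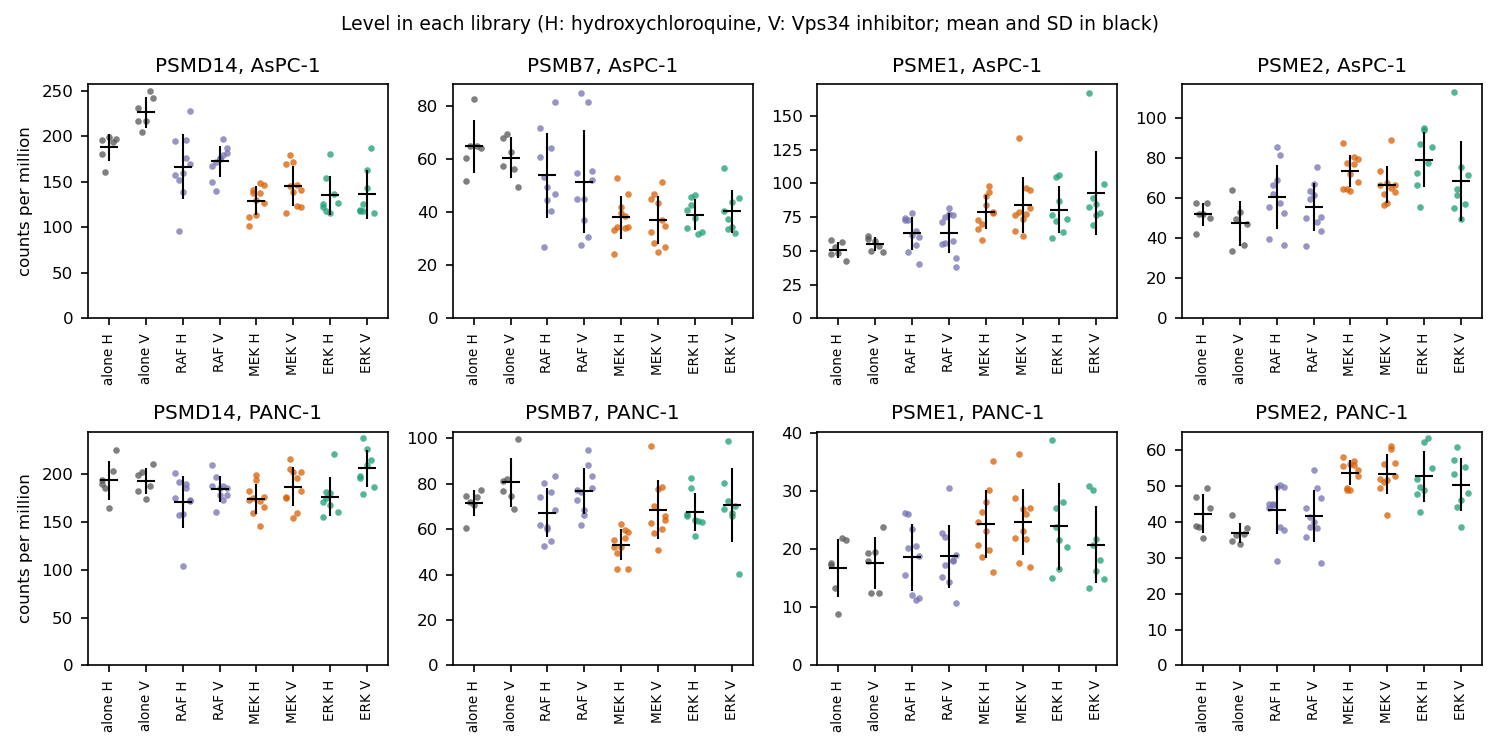
CPM of PSMD14, PSMB7, PSME1 and PSME2 in every library of AsPC-1 (top) and PANC-1 (bottom), by kinase inhibitor class and autophagy inhibitor, with mean and SD in black. In AsPC-1 the MEK and ERK libraries lie low for PSMD14 and PSMB7 and high for PSME1 and PSME2, and in PANC-1 PSMD14 overlaps in all groups.

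ERK inhibitors lowered 18 genes in AsPC-1 and raised the PA28 genes, against 17.4% of all genes lower and 13.7% higher. The comparison uses the same 12 alone libraries as that of the MEK inhibitors, so the counts are not independent. The 19S cap again had 13 of 20 genes lower (4 ATPases, the 3 other base subunits, 5 lid genes and the chaperone PSMD9), with a median of −0.31. The 20S core had 4 of 14 lower (PSMA5, PSMA7, PSMB3 and PSMB7), with a median of −0.19, against −0.06 for all genes. PSMD14 had 115, 126 and 187 CPM under ERK inhibitors and fell by 0.57 ± 0.06 (edgeR adjusted p = 2.9e-11), with 13 of 16 libraries below all alone libraries. PSMB7 had 31.7, 39.1 and 56.6 CPM and fell by 0.63 ± 0.10, with 15 of 16 libraries below. PSMC4 had 81.7, 121 and 169.7 CPM and fell by 0.41 ± 0.08, with overlapping groups.

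PSME1 had 59.7, 80.1 and 167 CPM under ERK inhibitors and rose by 0.72 ± 0.10 (edgeR adjusted p = 5.5e-08). PSME2 had 49.4, 72.0 and 113 CPM and rose by 0.59 ± 0.09. All but 1 of 16 libraries for PSME1, and 11 of 16 for PSME2, lay above every alone library. PSMA7, with 139.9, 192 and 270.4 CPM, fell by 0.35 ± 0.07. PSMB5 (−0.23 ± 0.11, edgeR adjusted p = 0.12) and PSMB6 (0.17 ± 0.10, edgeR adjusted p = 0.22) did not pass. Within plate A 8 genes were lower and 4 were higher, and within plate B 4 were lower. Without the libraries of plate B (replicate 2) among the combinations, 10 genes were lower. PSMD14 had −0.54 and −0.56 within plates A and B, PSME1 0.67 and 0.84, and PSMB7 −0.71 and −0.48.

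Set against each other directly, MEK and ERK inhibitors in AsPC-1 differed for 0 of the 38 genes by edgeR or DESeq2, and for 0 at an unadjusted p under 0.05. Over all genes 0.744% differed. The differences of the subunit genes ran from −0.18 to 0.16. Doses are not given, so this does not show that the classes act alike.

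RAF inhibitors lowered 8 genes and raised 0 in AsPC-1, against 4.91% of all genes lower and 3.75% higher. By DESeq2 0 rose, and 2 were higher at an unadjusted p under 0.05. PSMD14 had 95.7, 173 and 228 CPM under RAF inhibitors and fell by 0.29 ± 0.06 (edgeR adjusted p = 0.00061), with 7 of 20 libraries below all alone libraries. PSMD2 fell by 0.38 ± 0.10, from 96.7 to 73.3 CPM, and PSMA5, PSMA7, PSMC4, PSMD8, PSMD11 and PSMB3 fell by 0.22 to 0.27. PSMB7 had 27.0, 50.9 and 85.1 CPM, a range wider than in the alone libraries (−0.28 ± 0.10, edgeR adjusted p = 0.06). The count varied with the drugs and libraries kept. Without RAF709 2 genes were lower (2.49% of all genes) and without GDC-0879 4 (2.61%). Without PLX8394 2 genes were higher (5.05% of all genes), and without sorafenib 1 was. The count of lower genes was 5 without V alone replicate 1 or 6 or H alone replicate 3 or 4. Within plate A it was 1 and within plate B 0. Without the combinations of plate A and plate B it was 2 and 3.

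With each autophagy inhibitor taken apart, more subunit genes were lower with V than with H in AsPC-1. MEK inhibitors lowered 9 genes with H (9.3% of all genes) and 14 with V (10.4%). ERK inhibitors lowered 6 with H (9.18%) and 17 with V (13.5%). RAF inhibitors lowered 0 with H (1.68%, with 7 at an unadjusted p under 0.05 and 0 by DESeq2) and 4 with V (2.48%). Higher genes numbered 2 and 2 under MEK inhibitors with H and V (8.52% and 7.66%), 3 and 2 under ERK inhibitors (7.99% and 9.93%), and 0 and 0 under RAF inhibitors (1.39% and 1.32%, with 1 and 0 at an unadjusted p under 0.05 and 0 by DESeq2). The summed 19S cap without PSMC4 had a mean of 1467 CPM with H alone and 1551 with V alone. With H and V it was 1320 and 1307 CPM under RAF inhibitors and 1192 and 1189 under MEK inhibitors. Under ERK inhibitors it was 1265 CPM with H and 1099.8 with V.

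The difference between the autophagy inhibitors was tested directly and passed for none of the 38 genes. The interaction of class with autophagy inhibitor gave 0 calls by edgeR and by DESeq2 for each class, with 1, 5 and 5 genes at an unadjusted p under 0.05 for RAF, MEK and ERK inhibitors, all with a more negative value with V. Over all genes 0%, 0.094% and 0.313% passed. The V alone libraries, the reference of the V comparisons, were themselves higher than H alone for 5 genes, as given above. PSMD14 fell with both: under MEK inhibitors by 0.52 ± 0.08 with H and by 0.59 ± 0.08 with V, and under ERK inhibitors by 0.48 ± 0.09 and by 0.67 ± 0.09. PSME1 rose by 0.65 ± 0.14 and 0.66 ± 0.14 under MEK inhibitors. The catalytic gene PSMB6 had 0.40 ± 0.14 under ERK inhibitors with H (edgeR adjusted p = 0.046) and −0.06 ± 0.14 with V, and its interaction of −0.46 ± 0.20 did not pass (edgeR adjusted p = 0.44).

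Single kinase inhibitors in AsPC-1 were set, with 4 libraries each, against the 12 alone libraries. Among RAF inhibitors, RAF709 lowered 11 of the 38 genes (6.1% of all genes), GDC-0879 5 (5.12%) and dabrafenib 1 (1.61%), which was PSMD14. PLX8394 and sorafenib lowered 0 by edgeR (0.4% and 0.0157%), with 6 and 1 at an unadjusted p under 0.05. DESeq2 was not run for single drugs. Among MEK inhibitors, refametinib lowered 10 (8.49%), trametinib 9 (7.6%), cobimetinib 8 (8.09%), binimetinib 7 (7.59%) and selumetinib 2 (3.64%). Among ERK inhibitors, SCH772984 lowered 12 (9.04%), ulixertinib 8 (10.9%), AZD0364 7 (9.02%) and ravoxertinib 5 (7.27%). All drugs share the alone libraries, and their doses are not given, so these values stand side by side and are not compared.

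PSMD14 fell in 11 of the 14 drugs in AsPC-1, from −0.74 ± 0.10 with SCH772984 to −0.33 ± 0.10 with ravoxertinib. It had −0.22 with GDC-0879, −0.19 with PLX8394 and −0.06 with sorafenib, which did not pass. PSMB7 also fell in 11, from −0.96 ± 0.17 with refametinib to −0.48 with cobimetinib, and had −0.05 with sorafenib, 0.01 with dabrafenib and 0.02 with PLX8394. PSME1 rose with all 9 MEK and ERK inhibitors and with GDC-0879 (0.49), and had 0.41 with RAF709 (edgeR adjusted p = 0.06). PSME2 passed in all but AZD0364 (0.34), dabrafenib (0.23), sorafenib (0.02) and PLX8394 (−0.28). The plot by drug sets both lines side by side.

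**Figure D4:**
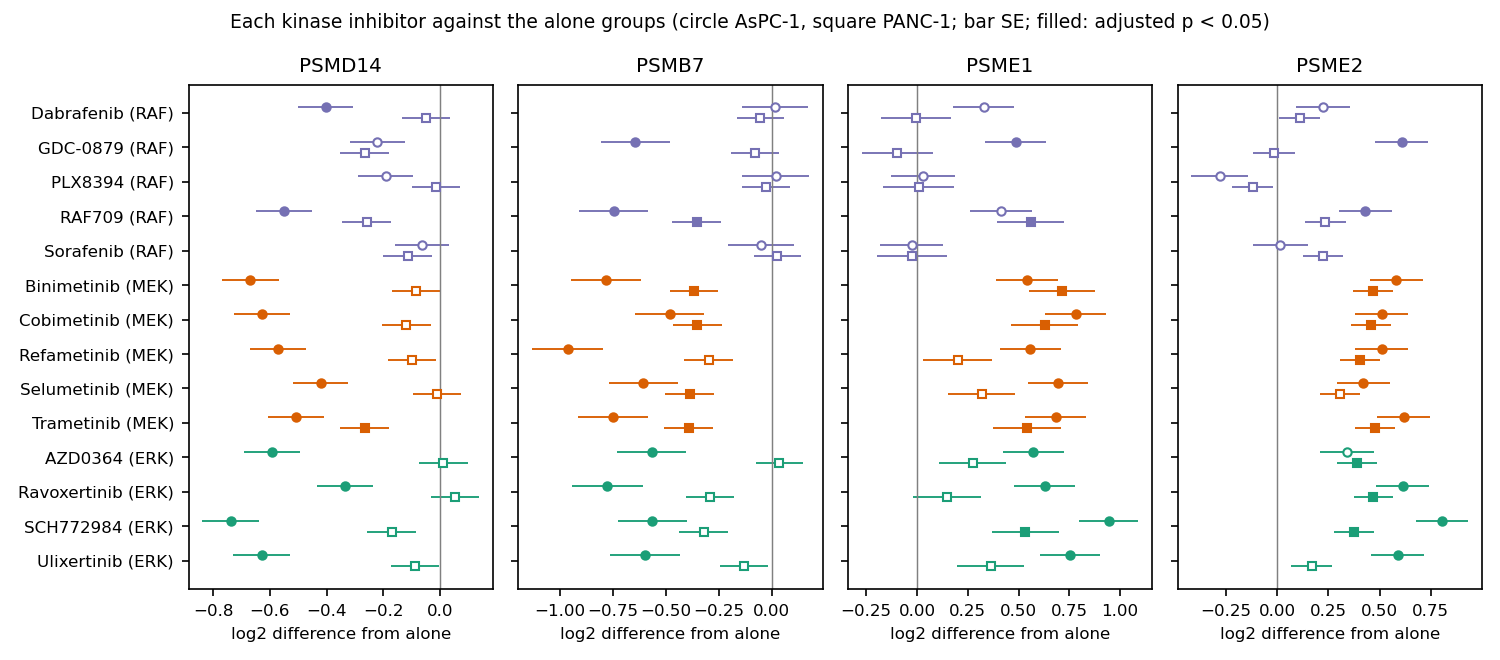
Log2 difference from the alone libraries (± SE) of PSMD14, PSMB7, PSME1 and PSME2 for each of 14 kinase inhibitors, as circles for AsPC-1 and squares for PANC-1, filled where the adjusted p is under 0.05. In AsPC-1 PSMD14 passes with 11 drugs, and in PANC-1 with 1, trametinib.

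Fewer subunit genes passed in PANC-1 than in AsPC-1, both between V and H alone and under each class. The same held for all genes. Between V and H alone, 0 genes passed in either direction by edgeR (1.31% of all genes were higher and 1.18% lower), with 3 higher and 1 lower at an unadjusted p under 0.05 and 1 higher by DESeq2. PSME4, the large nuclear activator PA200, had 0.41 ± 0.12 (edgeR adjusted p = 0.064), and all 6 V libraries lay above all H libraries. RAF inhibitors gave 0 calls by edgeR and DESeq2 (0.103% higher and 0.436% lower over all genes), with 1 higher and 6 lower at an unadjusted p under 0.05.

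MEK inhibitors in PANC-1 raised 3 genes and lowered 4 (7.9% and 10.6% of all genes). PSME2 had 33.8, 38.4 and 49.5 CPM alone and 41.8, 53.6 and 61.0 under MEK inhibitors, and rose by 0.42 ± 0.06 (edgeR adjusted p = 1.2e-06), with 15 of 20 libraries above all alone libraries. PSME1 had 8.9, 17.8 and 23.9 CPM alone and 16.2, 24.0 and 36.3, and rose by 0.48 ± 0.11, with 10 of 20 above. The alpha ring gene PSMA6 had 17.6, 28.1 and 34.7 CPM alone and 27.8, 34.8 and 40.9, and rose by 0.37 ± 0.08, with 10 of 20 above. PSMB7 had 60.6, 74.5 and 99.8 CPM alone and 42.5, 59.3 and 96.7, and fell by 0.36 ± 0.07 (edgeR adjusted p = 0.00013), with 12 of 20 below. PSME3 fell by 0.22 ± 0.06, PSMD4 by 0.17 ± 0.06 and PSMD11 by 0.21 ± 0.07, all with overlapping groups. The median over the 38 genes was −0.05, against −0.02 for all genes. In PANC-1 the summed epithelial and ductal markers ran over 578 to 757 CPM alone, 331 to 652 under MEK inhibitors and 360.2 to 554 under ERK inhibitors. The summed fibroblast markers, mostly COL1A1, ran over 36.8 to 65.3, 53.9 to 120.5 and 59.6 to 99.9 CPM in that order. Their part in the changes was not tested. Without trametinib 1 gene was lower. The count of lower genes was 2 without V alone replicate 2 or H alone replicate 5, and 0 and 2 without the combinations of plate A and plate B. Within plate A 1 gene was lower, and within plate B 0 were lower and 1 was higher.

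ERK inhibitors in PANC-1 raised the PA28 genes and lowered 0 genes (5.45% higher and 8.68% lower over all genes), with 2 lower at an unadjusted p under 0.05 and 0 by DESeq2. PSME2 had 38.6, 50.8 and 63.3 CPM and rose by 0.35 ± 0.07 (edgeR adjusted p = 9.2e-05). PSME1 had 13.3, 21.1 and 38.7 CPM and rose by 0.33 ± 0.11 (edgeR adjusted p = 0.04), with overlapping groups. A single gene was higher without V alone replicate 2, 4 or 6, or H alone replicate 2 or 6, and 4 were higher without H alone replicate 3. Within plate A 1 gene was higher and within plate B 0, and 0 and 1 genes were higher without the combinations of plate A and plate B. With AZD0364 left out 2 genes were lower, and without V alone replicate 6 1 was. PSMD14 overlapped throughout, with 164, 192 and 226 CPM alone, 146, 176 and 216 under MEK inhibitors and 155, 185 and 238 under ERK inhibitors.

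Taken apart by autophagy inhibitor in PANC-1, MEK inhibitors raised PSME1 and PSME2 and lowered PSMB7 with H (3.99% and 6.08% of all genes), and raised PSME2 and PSMA6 and lowered PSME3 with V (3.71% and 6.28%). ERK inhibitors raised PSME1 and PSME2 with H (2.58%) and PSME2 with V (2.39%), and lowered 0 with either (4.51% and 4.67%, with 2 and 3 at an unadjusted p under 0.05 and 0 by DESeq2). RAF inhibitors gave 0 calls with either by edgeR and DESeq2. Over all genes 0.0634% were higher and 0.348% lower with H, and 0.0396% and 0.214% with V. At an unadjusted p under 0.05, 7 subunit genes passed with H and 2 with V. The interaction of class with autophagy inhibitor passed for 0 genes in PANC-1 by edgeR and DESeq2, and for 0% of all genes in each class, with 5, 1 and 4 subunit genes at an unadjusted p under 0.05. MEK and ERK inhibitors differed for 0 of the 38 genes (2.26% of all genes), with 9 lower under MEK inhibitors at an unadjusted p under 0.05, a smallest adjusted p of 0.064 and 0 by DESeq2. Among single drugs, trametinib lowered 6 subunit genes (7.49% of all genes) and RAF709 lowered 3 (4.42%). Cobimetinib lowered 2 (4.43%), and binimetinib (3.96%), selumetinib (2.06%) and SCH772984 (4.01%) 1 each. The other 8 lowered 0 by edgeR, with 0 to 7 at an unadjusted p under 0.05. Over all genes the share lower was 3.49% for refametinib, 2.97% for AZD0364, 2.57% for ravoxertinib, 7.88% for ulixertinib, 0.127% for GDC-0879, 0.0238% for dabrafenib, 0.0475% for PLX8394 and 0.0317% for sorafenib. PSME2 rose with 7 single drugs in PANC-1, from 0.38 ± 0.10 with SCH772984 to 0.48 ± 0.10 with trametinib. PSME1 rose with 5, PSMA6 with 4 and PSMA3 with ravoxertinib (0.39 ± 0.12).

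Whether the lines differed was tested directly, as the effect in PANC-1 minus the effect in AsPC-1 in a fit of both lines together. Under ERK inhibitors the effect was higher in PANC-1 for 9 genes and lower for 0 (7.49% and 6.41% of all genes, 2 lower at an unadjusted p under 0.05). PSMD14 differed by 0.53 ± 0.08 (edgeR adjusted p = 7.0e-07), PSMB3 by 0.51, PSMC4 by 0.46 ± 0.10, PSMB7 and PSMD6 by 0.45, PSMA5 and PSMD12 by 0.40, and PSMC1 and PSMD8 by 0.38. All 20 genes of the 19S cap lay above 0, and the median over the 38 genes was 0.27, against 0.04 over all genes. Under MEK inhibitors 6 genes differed the same way and 0 the other way (6.08% and 5.29% of all genes, with 0 lower at an unadjusted p under 0.05). These were PSMC4 (0.51 ± 0.10), PSMD14 (0.45 ± 0.08, edgeR adjusted p = 1.4e-05), PSMB7 (0.36), PSMA7 (0.34), PSMA1 (0.30) and PSMD8 (0.24). This count was 3 without the plate term, and 2 with RLE factors, with drugs as replicates or at an adjusted p under 0.01.

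RAF inhibitors gave 0 line differences in either direction (0.874% and 0.809% of all genes), with 1 gene each way at an unadjusted p under 0.05. The difference of V from H was lower in PANC-1 for 3 alpha ring genes, PSMA3 (−0.72 ± 0.17), PSMA5 (−0.55) and PSMA1 (−0.53), and higher for 0 (1.35% and 1.17% of all genes, with 2 higher at an unadjusted p under 0.05). Without the plate term 0 passed as lower, and with drugs as replicates or at an adjusted p under 0.01 1 did. DESeq2 was not run for these differences. PSME1 and PSME2 did not pass as different between the lines under any class. Under ERK inhibitors they had −0.39 ± 0.16 (edgeR adjusted p = 0.077) and −0.23 ± 0.11. They were the 2 genes lower in PANC-1 at an unadjusted p under 0.05. Under MEK inhibitors they had −0.17 ± 0.15 and −0.10 ± 0.11. The plot of effects in both lines shows most genes left of 0 on the AsPC-1 axis and near 0 on the PANC-1 axis.

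**Figure D5:**
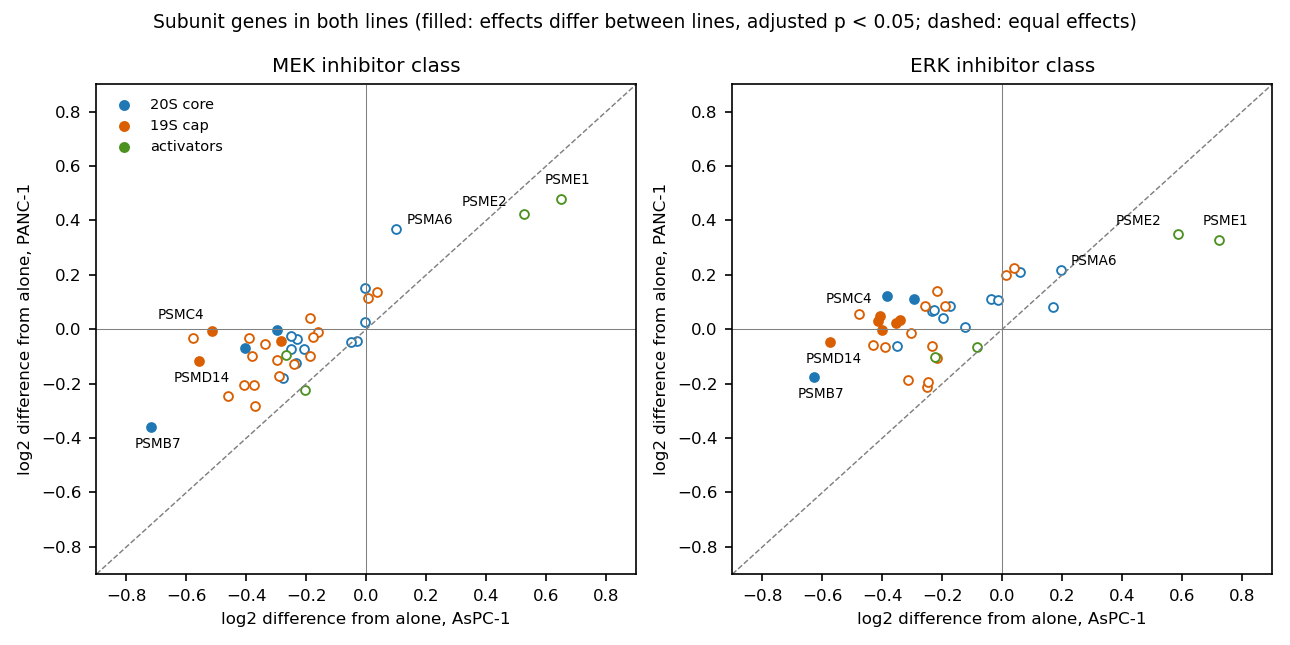
Log2 difference from alone in PANC-1 (vertical) against AsPC-1 (horizontal) for 38 subunit genes under MEK (left) and ERK inhibitors (right), filled where the effects differ between lines at an adjusted p under 0.05, with equal effects on the dashed line. PSMD14, PSMB7 and PSMC4 are filled in both panels, and PSME1 and PSME2 lie at upper right and are open.

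Genes that work with the proteasome were taken from fixed lists. The 3 immunoproteasome genes rose together in AsPC-1 under MEK inhibitors, where 12.9% of all genes rose. PSMB9 rose by 1.27 ± 0.13 (29.2 against 12.1 CPM), PSMB8 by 1.38 ± 0.17 (18.5 against 7.0 CPM) and PSMB10 by 1.14 ± 0.21 (14.4 against 6.5 CPM). They rose by 1.26, 1.46 and 1.24 under ERK inhibitors (13.7% of all genes), and PSMB9 by 0.40 under RAF inhibitors (3.75%). Their summed level was 20.5 to 33.9 CPM alone and 36.9 to 85.0 under MEK inhibitors, with no overlap. In PANC-1 0 of the 3 passed under any class by edgeR or DESeq2, with 1, 1 and 0 at an unadjusted p under 0.05 for RAF, MEK and ERK inhibitors. Tested directly, the effect of MEK inhibitors was lower in PANC-1 for PSMB9 (−1.05 ± 0.25), PSMB8 (−0.90 ± 0.25) and PSMB10 (−1.11 ± 0.24). For ERK inhibitors these differences were −1.32 ± 0.27, −1.13 ± 0.26 and −1.19 ± 0.25, and all passed. Under RAF inhibitors the 3 genes did not pass as different between the lines.

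Of the 5 chaperones that build the 20S core, 4 fell under MEK inhibitors in AsPC-1 (16.1% of all genes fell), led by POMP, which guides the last step of core assembly (300.5 against 397 CPM, −0.37 ± 0.05), PSMG1 (−0.57 ± 0.10) and PSMG3 (−0.57 ± 0.11). Under ERK inhibitors 3 of the 5 fell (17.4% of all genes) and under RAF inhibitors 3 (4.91%). In PANC-1 POMP fell under MEK inhibitors by 0.41 ± 0.05 and under ERK inhibitors by 0.28 ± 0.06. Of 6 other proteins bound to the 19S cap, the ubiquitin receptor ADRM1 (−0.59 ± 0.08, 94.0 against 145 CPM) and the deubiquitinase UCHL5 (−0.40 ± 0.11) fell under MEK inhibitors in AsPC-1. In PANC-1 UCHL5 fell by 0.33 ± 0.08 and the deubiquitinase USP14 rose by 0.20 ± 0.06.

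Of 8 shuttle and segregase genes 4 fell under MEK inhibitors in AsPC-1, where 16.1% of all genes fell, among them VCP (−0.26 ± 0.07), the ATPase that pulls tagged proteins out of complexes, UFD1 (−0.39 ± 0.10) and UBQLN1 (−0.33 ± 0.11). Of 6 ubiquitin genes 0 passed in AsPC-1 under MEK inhibitors by edgeR or DESeq2 (2 at an unadjusted p under 0.05), and UBB rose by 0.39 ± 0.11 in PANC-1. Of 7 regulators of subunit genes, NFE2L1 among them, 0 passed in AsPC-1 under MEK inhibitors by edgeR or DESeq2 (1 at an unadjusted p under 0.05), and DDI2, the protease that activates NFE2L1, fell under ERK inhibitors by 0.41 ± 0.12. In PANC-1 NFE2L2 rose (0.74 ± 0.18, 103 against 59.2 CPM) and MAFG, its partner, fell (−0.72 ± 0.11) under MEK inhibitors. Of 8 cytosolic heat shock genes 3 fell in AsPC-1 under MEK inhibitors (16.1% of all genes), HSPA8 (−0.64 ± 0.05), HSPH1 (−0.60 ± 0.08) and HSP90AA1 (−0.43 ± 0.09), and HSPB1 rose by 0.78 ± 0.08. For V against H alone in AsPC-1, PSMG3 rose by 0.70 ± 0.17, and the lists of regulators, ubiquitin genes and shuttles had 0 calls by edgeR or DESeq2, with 0, 0 and 1 at an unadjusted p under 0.05.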

How the data were processed

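Whole-number counts per gene symbol were deposited by the authors for all libraries. The submitters' processing notes name kallisto 0.44.0 and GRCh38; the sources used here do not give their roles, the annotation or the strand. Raw counts were fitted with edgeR 4.0.16 (TMM factors, filterByExpr by treatment group, robust quasi-likelihood with trended dispersion). Each line was fitted over its 68 libraries with 30 groups and a plate term (37 residual degrees of freedom, 12761 genes for AsPC-1, 12627 for PANC-1). Line differences came from a fit of both lines (74 degrees of freedom, 13960 genes). Class effects are means over drug groups minus the alone groups, with autophagy inhibitors weighted equally. Tests are two-sided, with Benjamini-Hochberg adjusted p under 0.05. The procedure was tested on simulated data. DESeq2 1.42.0 was an alternative.

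The code that opens each title holds A or B, read here as the plate although the labels do not name it so; each holds every treatment equally. Libraries on the same plate deviated together only in part, with a median correlation of 0.0499 (AsPC-1) and 0.0763 (PANC-1) over 435 pairs of treatments. No libraries were identical, and replicates correlated at 0.92 or more. The members and lists were chosen with earlier results of these data known. By rule, any subunit gene could be named, library values were given for up to 6 called genes per comparison and the catalytic subunits, and up to 3 called genes per other list were named. Gene positions are from GENCODE v29. Of the 40 genes, 13 overlap a measured gene on the opposite strand, 2 one on the same strand, and 12 have named pseudogenes. Precision covers counting error only. R 4.3.3 and Python 3.11.15 were used.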

Additional observations from a re-analysis of the deposited data

Results flagged for a closer look

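Single libraries stood apart from the other 5 of their group in 5 of 152 tests of the alone groups (3.29%), where chance flags about 1 in 20. In AsPC-1 these were PSMB2 in H alone replicate 3 (159 CPM, others 129 to 139.99) and PSMC3 in V alone replicate 6 (69.9 CPM, others 33.7 to 46.97). In PANC-1 they were PSMD6 in H alone replicate 6 (74.4 CPM, others 46.2 to 56.6), PSMA2 in V alone replicate 5 (454 CPM, others 377 to 392) and PSMC6 in V alone replicate 6 (17.6 CPM, others 11.7 to 13.0).

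Among the 38 tested subunit genes, the effect in PANC-1 minus the effect in AsPC-1 passed its test (edgeR, log2 scale) 18 times. For ERK inhibitors it was 0.40 for PSMA5, 0.51 for PSMB3, 0.45 for PSMB7, 0.38 for PSMC1, 0.46 for PSMC4, 0.40 for PSMD12, 0.53 for PSMD14, 0.45 for PSMD6 and 0.38 for PSMD8. For MEK inhibitors it was 0.30 for PSMA1, 0.34 for PSMA7, 0.36 for PSMB7, 0.51 for PSMC4, 0.45 for PSMD14 and 0.24 for PSMD8. For V against H alone it was −0.53 for PSMA1, −0.72 for PSMA3 and −0.55 for PSMA5.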

How the results depend on the processing

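The 66 gene results gave 1862 pairs of a result and a setting. Of these pairs, 1528 kept direction and call, 331 kept the direction and lost the call, and 3 reversed. In no setting did 10 gene results change, among them PSMD14, PSMC4 and PSME1 under MEK and ERK inhibitors in AsPC-1. The reversals were PSMC3 (MEK, AsPC-1) at 0.074 within plate A and 0.047 without the combinations of plate B, and PSMC6 at 0.021 within plate B. Where no cause is given, it was not tested; within plates and without a replicate, fewer samples were fitted. Without the replicate block (plate term), V against H in AsPC-1 had 3 higher genes in place of 5, RAF inhibitors in AsPC-1 4 lower in place of 8, ERK inhibitors in PANC-1 1 higher in place of 2, and the line difference 3 higher for MEK in place of 6 and 0 lower for V against H in place of 3. Within plate A and plate B, counts in AsPC-1 were 11 and 9 lower for MEK (21), 8 and 4 lower for ERK (18), 1 and 0 lower for RAF (8), and 0 and 0 for V against H in both directions (5 and 1); 4 genes were higher for ERK within A and 1 for MEK within B. In PANC-1 they were 1 and 0 lower for MEK (4), 1 higher for MEK within B (3), and 1 and 0 higher for ERK (2). At an adjusted p under 0.01 the counts were 2 lower for RAF in AsPC-1, 2 lower for MEK and 1 higher for ERK in PANC-1, and 2 higher for MEK and 1 lower for V against H in the line difference. With drugs as replicates they were 3 lower for RAF, 1 higher for ERK in PANC-1, and 2 higher for MEK and 1 lower for V against H in the line difference. With no filter they were 5 lower for RAF and 1 higher for ERK in PANC-1. RLE factors gave 2 higher for MEK and 1 lower for ERK in the line difference, and DESeq2 1 higher for V against H in PANC-1. Leaving out RAF709 or GDC-0879 left 2 or 4 lower for RAF, PLX8394 or sorafenib 2 or 1 higher; trametinib left 1 lower for MEK and AZD0364 2 lower for ERK in PANC-1. Leaving out 1 alone library gave 17 to 20 lower for MEK, 15 to 18 for ERK and 5 to 8 for RAF in AsPC-1. In PANC-1 it gave 1 to 4 higher and 0 to 1 lower for ERK, and 3 higher and 2 to 5 lower for MEK. Leaving out all combinations of plate A or of plate B gave 14 lower for MEK, 10 to 12 for ERK and 2 to 3 for RAF in AsPC-1. In PANC-1 that gave 0 to 1 higher and 0 lower for ERK, and 1 to 2 higher and 0 to 2 lower for MEK. For PSMC3 the range over these fits was −0.70 to 0.047. The median of the subunit genes minus that of all genes stayed between −0.25 and −0.09 for MEK and between −0.23 and −0.07 for ERK in AsPC-1. 2 libraries per combination limit single drugs.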
